A study of Mus musculus with 24 samples.

Results

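The kinase TPL-2 and the proteins that link it to serum response factor were followed at the RNA level through 9 genes: Map3k8, which encodes TPL-2, its partner Tnip2, the kinase genes Map2k1, Map2k2 and Mapk3, the ternary complex factor genes Elk1, Elk3 and Elk4, and Srf. They were taken by name, as the rows of the deposited expression table that carry these symbols, by a rule that reads no measured value. The names themselves were chosen with earlier results of these data known. All 9 were found among the 24273 genes of the table, and all 9 passed the filter on low values that left 13901 genes for testing. The data came from bone marrow-derived macrophages of C57BL/6 mice, studied without stimulation (0 h) or after 0.5, 1 or 2 h with lipopolysaccharide (LPS) at 100 ng/ml. One genotype, labelled FosKO, carried floxed Fos alleles and a Cre recombinase expressed from the lysozyme 2 locus (LysM-Cre), which acts in myeloid cells. The control, labelled LysM, carried LysM-Cre without deletion of both Fos alleles, and the sources differ on whether it had 1 floxed Fos allele or none. Each of the 8 combinations of genotype and time had 3 libraries, 24 in all, and by the sources both genotypes carried Cre. The age of the donor mice was not given in the sources used here.

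TPL-2 is a MAP 3-kinase that is held inactive in resting macrophages by NF-κB1 p105 and is stabilised by p105 and by ABIN-2, the product of Tnip2. When LPS engages Toll-like receptor 4, the IκB kinase complex triggers p105 proteolysis, and the freed TPL-2 phosphorylates the MAP kinase kinases MEK1 and MEK2, products of Map2k1 and Map2k2, which in turn activate the ERK kinases, among them ERK1, the product of Mapk3. ERK phosphorylates the ternary complex factors Elk-1, Net (Elk3) and Sap-1 (Elk4). These are ETS-domain proteins that sit beside the serum response factor dimer on promoters of immediate early genes such as Fos and Egr1. Much of this pathway is controlled by phosphorylation and proteolysis, which RNA levels do not measure.

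Promoter sequence was looked at because Srf and the ternary complex factors bind known short elements. Among the genes searched, Srf and Elk4 had a start whose window held such an element. Of the 9 genes, 7 had an entry in the RefSeq promoter table (GRCm38.p6), with 9 starts in all, and the 250 bases before each start were searched on both strands for the CArG box bound by serum response factor, for the ETS core CCGGAAG, for the AP-1 element TGANTCA and for an NF-κB consensus. The Srf window held 2 CArG boxes and 1 ETS core, and the first of the 3 listed Elk4 starts had 1 ETS core, while the windows of the other two Elk4 starts held none of the motifs. Over 32841 promoters of the table, windows of the same length held a CArG box in 1.47%, CCGGAAG in 6.91%, TGANTCA in 6.75% and the NF-κB consensus in 3.9%. Such matches describe the letters of a window and do not show that a factor binds there. The sequence after the Elk3 start was not found near the beginning of an annotated Elk3 transcript, whereas the other starts passed this check. The lack of motifs in the Elk3 window is thus less sure. The windows are written 5′ to 3′ on the strand of the gene, with the matches in capitals: for Srf chr17:46556163-46556412 on the minus strand, with CArG boxes 82 to 73 and 62 to 53 bases before the start and the ETS core at 122 to 116, and for Elk4 chr1:132007370-132007619 on the plus strand, with the ETS core 68 to 62 bases before the start.
Srf: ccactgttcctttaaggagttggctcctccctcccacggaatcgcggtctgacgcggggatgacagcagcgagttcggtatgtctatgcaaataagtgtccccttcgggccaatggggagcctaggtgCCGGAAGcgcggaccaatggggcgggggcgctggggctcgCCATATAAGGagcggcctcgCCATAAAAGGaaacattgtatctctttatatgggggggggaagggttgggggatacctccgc
Elk4: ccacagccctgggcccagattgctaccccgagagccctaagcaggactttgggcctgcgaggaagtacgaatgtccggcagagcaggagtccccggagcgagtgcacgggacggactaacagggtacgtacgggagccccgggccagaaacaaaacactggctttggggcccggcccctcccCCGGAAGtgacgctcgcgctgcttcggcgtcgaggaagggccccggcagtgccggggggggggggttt

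Values below are the deposited normalised levels on a log2 scale, differences are on that same scale, and adjusted p-values are from limma with Benjamini-Hochberg adjustment over the 13901 genes. The sources call the libraries biological replicates without saying that each came from its own mouse, so the p-values measure the spread between these libraries. The Fos level did not settle the labels: libraries labelled FosKO averaged 12.60, 12.75, 12.78 and 12.80 at 0, 0.5, 1 and 2 h, against 11.11, 13.52, 11.15 and 9.52 in libraries labelled LysM, and a value per gene does not show which exons were read. LPS raised Fos 5.30-fold at 0.5 h in libraries labelled LysM (adjusted p = 1.61e-14, limma). In those labelled FosKO the change was 1.11-fold and not called (adjusted p = 0.396, limma). The lysozyme gene Lyz2 was higher in libraries labelled FosKO at every time, by 4.89 to 5.17. Cre is expressed from that locus, the number of Cre alleles in either group was not given in the sources used here, and a difference in it cannot be told apart from the Fos genotype. Directions between genotypes are therefore directions between libraries so labelled. The macrophage markers were present, with 8 of 8 above the filter and a summed level of 17.32 to 17.56 in LysM and 17.28 to 17.66 in FosKO libraries, although 3, 3, 3 and 4 of the 8 were called higher and 4, 1, 2 and 0 lower in FosKO libraries at the 4 times. Of the neutrophil markers, 3 of the 7 in the table passed the filter, Ly6g and Elane were at the lowest values, and the summed level was 5.94 to 7.00 in LysM against 5.47 to 6.10 in FosKO libraries, with 2 or 3 of the 3 called lower at each time. The part of either marker set in the differences between genotypes was not tested. At 0.5 and 1 h, 3 LysM and 2 FosKO libraries had an 18S ribosomal RNA level of 16.65 to 17.00, against 18.57 to 19.39 in the other 19, and values within each set are given where they bear on a result. Such values rest on few libraries, and those of the low set have no test. At 0.5 h they rest on 2 against 2 with high and 1 against 1 with low 18S RNA, at 1 h on 2 FosKO against 1 LysM with high and 1 FosKO against 2 LysM with low.

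Map3k8 and Elk3 differed between the genotypes at all 4 times, in opposite directions, and the other 7 genes at 1 time or at none. Map3k8 was 1.21- to 1.41-fold higher and Elk3 9.44 to 18.7% lower in libraries labelled FosKO, and no FosKO library overlapped a LysM library of the same time for either gene. Elk4 was higher at 2 h, Srf lower at 0.5 h and Mapk3 lower at 0 h, and Tnip2, Map2k1, Map2k2 and Elk1 were not called at any time. Counted over the 9 genes, 3, 3, 2 and 3 were called at 0, 0.5, 1 and 2 h, against 35.4%, 40.9%, 33.9% and 44.6% of all genes tested, so the share called was close to or below that of the whole table. Groups did not overlap for 3, 4, 2 and 5 of the 9 genes, where 44.5%, 50.8%, 45% and 54% of all genes tested had groups apart. With quantile normalisation the counts were 1, 1, 1 and 2 higher and 3, 3, 2 and 4 lower: the calls of Map3k8, Elk3, Elk4, Srf and Mapk3 given above were kept, and Map2k1 (0 and 1 h), Mapk3 (0.5 and 2 h), Map2k2 and Srf (both 2 h) were called lower as well. The median difference of the 9 genes was -0.01, 0.02, -0.01 and 0.01. Being called higher at all 4 times, as Map3k8 was, held for 11.4% of tested genes, and being called lower at all 4, as Elk3 was, for 7.11%. Bulk RNA does not tell fewer cells that express a gene from less RNA per cell, which holds for every difference given here.

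**Figure D1:**
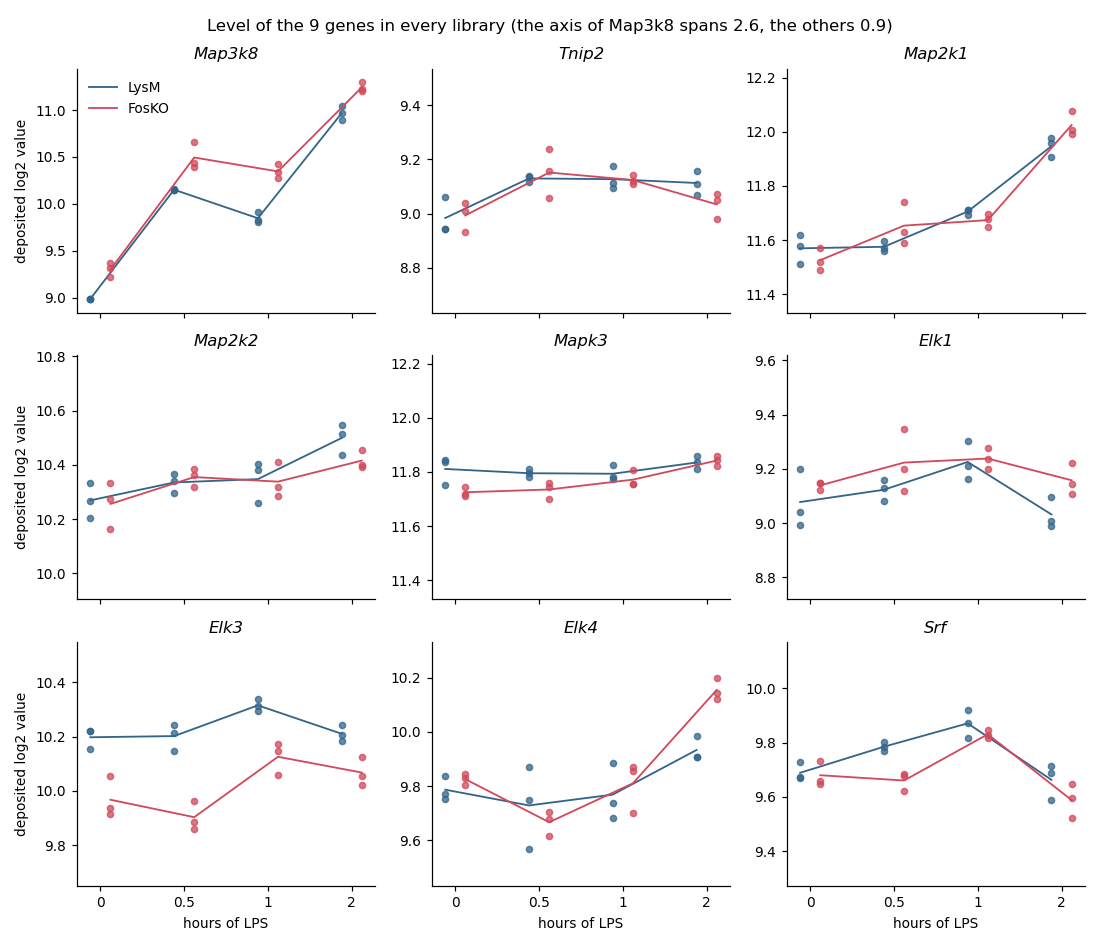
Deposited log2 level of each of the 9 genes in every library (points) against time with LPS in hours, for the LysM and FosKO labels, with lines through the means of 3 libraries. Map3k8, on a wider axis than the others, runs from 8.99 to 11.30, Elk3 is lower in every FosKO library than in every LysM library of the same time, and Mapk3 stays between 11.70 and 11.86.

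Map3k8 (ENSMUSG00000024235, chr18:4331327-4353015, minus strand, GRCm38) encodes TPL-2 and had the widest range of the 9. Its level in unstimulated LysM libraries was 8.99, 8.99 and 8.99, and LPS libraries read 10.14, 10.16 and 10.15 after 0.5 h, then 9.81, 9.83 and 9.91 after 1 h, then 10.89, 10.96 and 11.04 after 2 h. Unstimulated libraries labelled FosKO read 9.22, 9.32 and 9.37, followed by 10.43, 10.39 and 10.66 after 0.5 h, then 10.27, 10.43 and 10.34 after 1 h, then 11.22, 11.20 and 11.30 after 2 h. Every FosKO library lay above every LysM library of its time, and in both genotypes the level went up by 0.5 h, was lower at 1 h and was highest at 2 h. Libraries labelled FosKO were higher by 0.31 at 0 h (SE 0.06, 1.24-fold, adjusted p = 0.000218, limma), by 0.34 at 0.5 h (1.27-fold, adjusted p = 6.26e-05), by 0.50 at 1 h (1.41-fold, adjusted p = 9.35e-07) and by 0.27 at 2 h (1.21-fold, adjusted p = 0.000541). With quantile normalisation the 2 h difference was 0.16, still called (adjusted p = 0.0188, limma). Among libraries with high 18S RNA the difference was 0.37 at 0.5 h and 0.58 at 1 h, and among those with low 18S RNA 0.28 and 0.40.

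LPS raised Map3k8 at all 3 times in both genotypes, a pattern held by 2.22% of the genes tested. The increase over 0 h in LysM macrophages was 2.24-fold at 0.5 h (adjusted p = 3.12e-12, limma), 1.81-fold at 1 h (adjusted p = 1.21e-10) and 3.94-fold at 2 h (adjusted p = 3.82e-17). The corresponding FosKO increases were 2.29-fold, 2.06-fold and 3.84-fold, with adjusted p-values of 2.52e-12, 4.9e-12 and 5.63e-17. Between 0.5 and 1 h the level fell by 0.30 in LysM macrophages (adjusted p = 0.000325, limma), while in FosKO libraries the difference was -0.15, did not pass the test (adjusted p = 0.0624) and the groups overlapped. Between 1 and 2 h it rose by 1.12 and 0.89 (adjusted p = 1.18e-12 and 3.87e-11). These steps between successive times were added to the comparisons after the values had been seen, and 26.8% and 52.3% of genes were called over them in LysM, 27.5% and 50.7% in FosKO libraries. The response to LPS was not shown to differ between genotypes: the FosKO minus LysM difference in response was 0.03 at 0.5 h (95% interval -0.14 to 0.20, adjusted p = 0.978, limma), 0.19 at 1 h (0.02 to 0.36, adjusted p = 0.56) and -0.04 at 2 h (-0.21 to 0.13, adjusted p = 0.828).

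Tnip2 (chr5:34496087-34513991, minus strand) encodes ABIN-2, which binds and stabilises TPL-2 and p105. Its group means lay between 8.98 and 9.15 over all 8 groups. Unstimulated LysM libraries read 8.94, 8.94 and 9.06, and those given LPS for 0.5 h 9.13, 9.14 and 9.12. Unstimulated FosKO libraries read 8.93, 9.04 and 9.01, and those given LPS for 0.5 h 9.16, 9.06 and 9.24. All libraries of 0.5 h were thus above the unstimulated libraries of their genotype. The rise with LPS in LysM macrophages was 0.15, 0.14 and 0.13 at 0.5, 1 and 2 h (adjusted p = 0.0489, 0.0147 and 0.0154, limma), and in FosKO libraries 0.16 and 0.13 at 0.5 and 1 h (adjusted p = 0.0361 and 0.0276). At 2 h the FosKO difference from 0 h was 0.04 (adjusted p = 0.445). Each of these calls on Tnip2 was lost under 3 or more of the other ways of processing the values. Without LysM replicate 1 or 2 of 0 h none of the LysM calls held, without FosKO replicate 1 of 0 h neither FosKO call did, and leaving out some of the LPS libraries lost them too, with values from 0.0993 to 0.204 over all such omissions. The genotypes differed by 0.01, 0.02, -0.00 and -0.08, and none of these passed the test.

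Nfkb1, the gene of the p105 protein that holds TPL-2, rose 2 h after LPS by 1.92 in LysM and by 1.95 in FosKO libraries (adjusted p = 3.71e-18 and 3.19e-18, limma). Of the 3 genes of this complex, Map3k8 and Nfkb1 thus rose by more than 1.9 on the log2 scale at 2 h in both genotypes, while Tnip2 moved by 0.13 or less at that time.

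Map2k1 (chr9:64185770-64253631, minus strand) encodes MEK1, a direct substrate of TPL-2. Its level in unstimulated LysM macrophages was 11.62, 11.58 and 11.51, then 11.60, 11.57 and 11.56 after 0.5 h, 11.71, 11.69 and 11.71 after 1 h, and 11.96, 11.98 and 11.91 after 2 h. The FosKO libraries read 11.49, 11.57 and 11.52, then 11.59, 11.63 and 11.74, then 11.65, 11.70 and 11.68, and finally 12.00, 11.99 and 12.08 in the same order of times. The libraries at 2 h stood above all earlier libraries of their genotype. The increase at 2 h over 0 h was 0.38 in LysM macrophages (SE 0.03, 1.30-fold, adjusted p = 6.92e-09, limma) and 0.50 in FosKO libraries (1.41-fold, adjusted p = 7.88e-11). At 1 h the increases were 0.14 and 0.15 (adjusted p = 0.0042 and 0.00226), and both calls depended on the scaling: with quantile normalisation they became -0.0087 and 0.01 and were not called. In FosKO libraries Map2k1 was 0.13 higher already at 0.5 h (adjusted p = 0.0327), which did not hold once FosKO replicate 1 or 3 of 0 h or replicate 3 of 0.5 h was omitted, with values of 0.084 to 0.16, nor with quantile normalisation, at 0.055 (adjusted p = 0.35), and was lost under 7 settings in all. From 1 to 2 h it rose by 0.24 in LysM and 0.35 in FosKO libraries (adjusted p = 5.94e-06 and 3.36e-08, limma). With quantile normalisation these steps were 0.129 and 0.186, still called. From 0.5 to 1 h it rose by 0.13 in LysM (adjusted p = 0.00743), where quantile normalisation left 0.041. The genotype differences were -0.04, 0.08, -0.03 and 0.08, none past the test, while quantile normalisation gave calls of -0.117 at 0 h and -0.103 at 1 h (adjusted p = 0.0079 and 0.019), and at 2 h the lowest FosKO library was above the highest LysM library (adjusted p = 0.0773).

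Map2k2 (chr10:81105915-81133975, plus strand) encodes the closely related MEK2. Its group means ran from 10.27 at 0 h over 10.34 and 10.35 to 10.50 at 2 h in LysM macrophages, and from 10.26 over 10.36 and 10.34 to 10.42 in FosKO libraries. At 2 h the LysM libraries read 10.55, 10.51 and 10.44 against 10.33, 10.27 and 10.21 at 0 h, and the FosKO libraries 10.39, 10.40 and 10.45 against 10.33, 10.27 and 10.16. The 2 h libraries of each genotype were above those at 0 h, by 0.23 in LysM (SE 0.05, adjusted p = 0.00023, limma) and 0.16 in FosKO (adjusted p = 0.00558). With quantile normalisation these increases were 0.09 and 0.01 and were not called, whereas those of Map2k1 at 2 h, 0.12 and 0.19, were. The LysM step from 1 to 2 h was 0.15 (adjusted p = 0.0098, limma). That call was lost without LysM replicate 1 of 1 h or of 2 h, at 0.107 and 0.128, and with quantile normalisation, at 0.103. The genotypes differed by -0.01, 0.02, -0.01 and -0.08 in Map2k2, with no call, and by -0.150 at 2 h with quantile normalisation, called lower (adjusted p = 0.0196).

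Mapk3 (chr7:126759601-126765819, plus strand) encodes ERK1, the end kinase of the cascade. It had the narrowest range of the 9 genes, from 11.73 to 11.84 over the 8 group means. At 0 h the LysM libraries read 11.84, 11.84 and 11.75 and the FosKO libraries 11.74, 11.72 and 11.71, so the groups did not overlap and the FosKO libraries were lower by 5.79% (difference -0.09, SE 0.03, adjusted p = 0.0115, limma). That call was lost when either LysM replicate 1 or 2 of 0 h was left out, with adjusted p of 0.065 and 0.061, and in a fit of only the groups compared (adjusted p = 0.096). At 0.5, 1 and 2 h the difference was -0.06, -0.02 and 0.01. LPS gave no call in LysM macrophages, with -0.02, -0.02 and 0.02, whereas quantile normalisation gave -0.165 at 1 h and -0.227 at 2 h, both called lower (adjusted p = 0.00063 and 7.8e-06). In FosKO libraries the level at 2 h, 11.82, 11.86 and 11.84, was above that at 0 h by 0.12 (adjusted p = 0.000434, limma), a direction that quantile normalisation turned to -0.19, called lower (adjusted p = 7.4e-05). The FosKO step of Mapk3 from 1 to 2 h was 0.07 (adjusted p = 0.0255), with -0.104 under quantile normalisation and no call without replicate 1 or 3 of 1 h or replicate 2 or 3 of 2 h (no lower than 0.061).

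**Figure D2:**
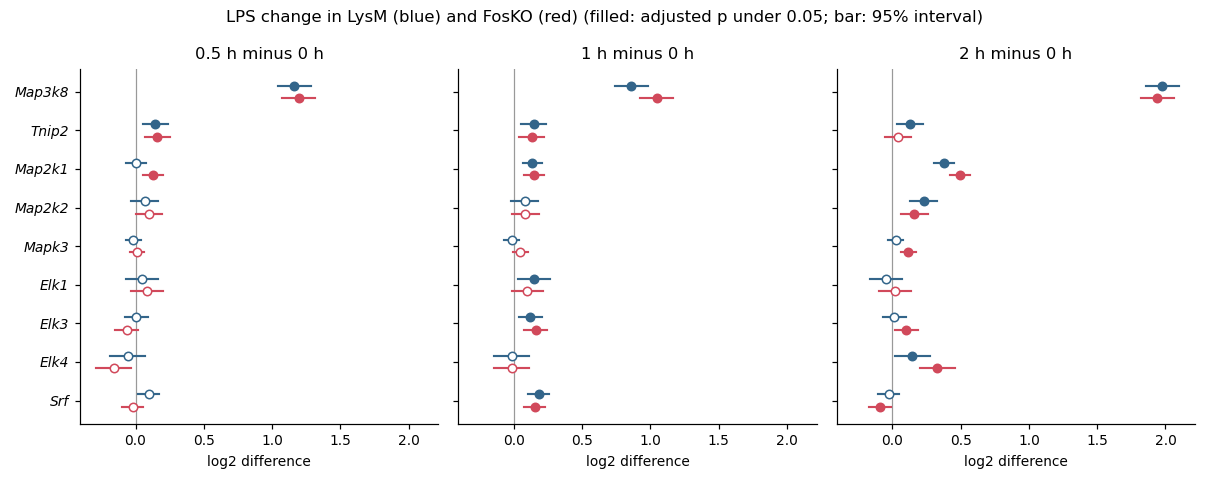
Difference from 0 h on the log2 scale at 0.5, 1 and 2 h of LPS for each of the 9 genes, in LysM (blue) and FosKO (red), with bars for the 95% interval and filled points for an adjusted p under 0.05. Map3k8 stands alone at 0.86 to 1.98, Map2k1 reaches 0.38 and 0.50 at 2 h, and Elk4 reaches 0.33 in FosKO.

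Elk3 (chr10:93247414-93311135, minus strand) encodes Net, a ternary complex factor known also as a repressor until it is phosphorylated. Unstimulated LysM libraries read 10.22, 10.22 and 10.15, and those with LPS 10.15, 10.21 and 10.24 after 0.5 h, then 10.34, 10.29 and 10.31 after 1 h, then 10.21, 10.24 and 10.18 after 2 h. Libraries labelled FosKO read 10.05, 9.94 and 9.91, then 9.96, 9.89 and 9.86, then 10.15, 10.06 and 10.17, and last 10.12, 10.02 and 10.05 over the same times. The highest FosKO library was below the lowest LysM library at each time. The difference was -0.23 at 0 h (SE 0.04, adjusted p = 0.000131, limma), -0.30 at 0.5 h (adjusted p = 4.88e-06), -0.19 at 1 h (adjusted p = 0.000939) and -0.14 at 2 h (adjusted p = 0.00648). Within the libraries of high 18S RNA it was -0.31 at 0.5 h and -0.22 at 1 h, and within those of low 18S RNA -0.28 and -0.16. On the opposite strand, Cdk17 shares 316 exonic bases with Elk3, and it was called lower at 0, 0.5 and 1 h (-0.13, -0.18 and -0.17) but not at 2 h (-0.01, adjusted p = 0.89). The reads were strand-specific, but whether the counting used the strand was not given, and the part of Cdk17 reads in the Elk3 values was not tested.

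Over time, Elk3 moved little. Between 0.5 and 1 h of LPS it rose by 0.22 in FosKO libraries (adjusted p = 0.000235, limma) and by 0.11 in LysM macrophages (adjusted p = 0.0423), where it fell by 0.10 again from 1 to 2 h (adjusted p = 0.0349), a call lost without LysM replicate 1 or 3 of either time (-0.121 to -0.0910 over all omissions). Against 0 h it was higher at 1 h by 0.12 in LysM and 0.16 in FosKO libraries (adjusted p = 0.0275 and 0.00421), and at 2 h by 0.10 in FosKO libraries (adjusted p = 0.0366), where the groups overlapped and quantile normalisation gave -0.0068. The LysM calls and the one at 2 h were lost under 6 to 10 other settings each, and the FosKO call at 1 h under 2. Quantile normalisation took the 1 h increases to 0.023 in LysM and 0.083 in FosKO libraries (adjusted p = 0.70 and 0.14). Omission of LysM replicate 3 of 0 h or replicate 1 or 3 of 1 h ended the LysM call at 1 h, with values of 0.0953 to 0.129 over all omissions. The step from 0.5 to 1 h in LysM was lost without any of 5 single libraries of those times, all but LysM replicate 3 of 0.5 h. For the 2 h call in FosKO libraries the omissions that ended it were replicate 2 or 3 of 0 h and replicate 1 or 3 of 2 h, with 0.0715 to 0.143 over all omissions.

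Elk4 (chr1:132007607-132032612, plus strand) encodes Sap-1 and changed late. At 2 h the LysM libraries read 9.91, 9.91 and 9.99 and the FosKO libraries 10.14, 10.20 and 10.12, with no overlap. Earlier, LysM libraries read 9.75, 9.84 and 9.77 without LPS, then 9.75, 9.87 and 9.57 after 0.5 h, then 9.89, 9.74 and 9.68 after 1 h, where FosKO libraries read 9.83, 9.80 and 9.84, then 9.62, 9.68 and 9.71, then 9.70, 9.86 and 9.87. The genotypes overlapped at these 3 earlier times. Elk4 was 16.6% higher in FosKO libraries at 2 h (difference 0.22, SE 0.06, adjusted p = 0.00593, limma), against 0.04, -0.06 and 0.04 earlier. Relative to 0 h it rose by 25.6% in FosKO libraries at 2 h (adjusted p = 9.33e-05) and by 0.15 on the log2 scale in LysM macrophages (adjusted p = 0.0459). The step from 1 to 2 h was 0.34 in FosKO and 0.16 in LysM libraries (adjusted p = 7.69e-05 and 0.0303). Neither LysM call was firm. Quantile normalisation took the 2 h increase to 0.063 (adjusted p = 0.38), and high 18S libraries alone took the step to 0.047 (adjusted p = 0.52). The increase was also lost without LysM replicate 1 or 3 of 0 h or any replicate of 2 h (0.12 to 0.17), and the step without replicate 2 or 3 of 1 h or replicate 3 of 2 h (0.122 to 0.223). The FosKO minus LysM difference in the 2 h response, 0.18 (95% interval 0.00 to 0.36), did not pass the test (adjusted p = 0.184, limma). It passed in a fit of only the 4 groups involved, with a term for 18S RNA, and among libraries of high 18S RNA (adjusted p = 0.031, 0.025 and 0.03). Mfsd4a, which shares 84 exonic bases with Elk4 on the other strand, differed by 0.12 at 2 h (adjusted p = 0.216).

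Elk1 (chrX:20933395-20950608, minus strand) encodes a ternary complex factor known from the Fos promoter. Its group means lay between 9.03 and 9.24. LysM libraries read 9.04, 9.20 and 8.99 without LPS, then 9.16, 9.08 and 9.13 after 0.5 h, then 9.21, 9.16 and 9.30 after 1 h, then 9.10, 9.01 and 8.99 after 2 h. FosKO libraries over these times read 9.15, 9.12 and 9.15, then 9.35, 9.12 and 9.20, then 9.20, 9.24 and 9.28, then 9.14, 9.22 and 9.11. The genotype difference was 0.06, 0.10, 0.01 and 0.13, and at 2 h the groups did not overlap but the test was not passed (adjusted p = 0.0744, limma). In LysM macrophages Elk1 was 0.15 higher at 1 h than at 0 h (adjusted p = 0.0452, overlapping groups, lost under 11 other settings, among them without LysM replicate 1 or 3 of either time, with values of 0.106 to 0.208). From 1 to 2 h it fell by 0.19 (adjusted p = 0.00626, limma). That call was lost among high 18S libraries alone, where 1 LysM library was left at 1 h and the difference was -0.18. In FosKO libraries no LPS time was called, with 0.08, 0.10 and 0.02. Elk1 shares 76 exonic bases with Uxt on the same strand, and Uxt was 0.19 higher in FosKO libraries at 2 h (adjusted p = 0.0313).

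**Figure D3:**
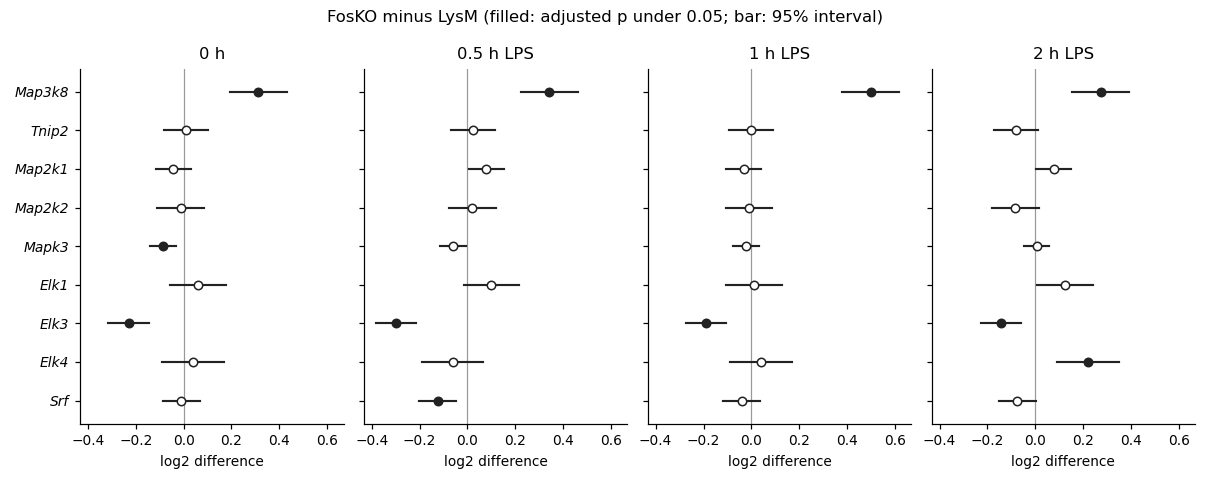
FosKO minus LysM difference on the log2 scale for each of the 9 genes at 0, 0.5, 1 and 2 h, with bars for the 95% interval and filled points for an adjusted p under 0.05. Map3k8 lies to the right of 0 and Elk3 to the left in all 4 panels, while Elk4 moves away from 0 at 2 h only.

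Srf (chr17:46548329-46556175, minus strand), whose own promoter window holds the CArG boxes printed above, went up to 1 h and down again. LysM libraries read 9.67, 9.73 and 9.67 before LPS, then 9.77, 9.80 and 9.79 after 0.5 h, then 9.82, 9.87 and 9.92 after 1 h, then 9.69, 9.71 and 9.59 after 2 h. FosKO libraries read 9.73, 9.65 and 9.66, then 9.68, 9.68 and 9.62, then 9.82, 9.83 and 9.85, then 9.52, 9.60 and 9.65 over these times. In both genotypes the 1 h libraries stood above all others. The increase at 1 h over 0 h was 0.18 in LysM and 0.15 in FosKO libraries (SE 0.04, adjusted p = 0.000558 and 0.00327, limma). The former call was lost among high 18S libraries alone, at 0.13 with 1 LysM library left at 1 h, and the latter with quantile normalisation, at 0.09. From 1 to 2 h the level fell by 0.21 and by 0.24 (adjusted p = 7.56e-05 and 1.26e-05, limma). At 2 h the FosKO libraries were 0.09 below their 0 h level (adjusted p = 0.0384), a difference of -0.164 with quantile normalisation. The call was lost under 6 other settings, among them without FosKO replicate 1 of 0 h or replicate 1 or 2 of 2 h (-0.121 to -0.0590 over all omissions).

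The genotypes were apart in Srf at 0.5 h, when the difference from 0 h was 0.10 in LysM libraries (adjusted p = 0.156, limma, not called, without overlap) and -0.02 in FosKO libraries. FosKO libraries were then 8.28% lower (difference -0.12, adjusted p = 0.0108), without overlap, and the difference was -0.13 within the libraries of high 18S RNA and -0.11 within those of low. The call was lost in the high 18S libraries alone (adjusted p = 0.051) and without FosKO replicate 3 of 0.5 h (adjusted p = 0.059). At 0, 1 and 2 h the differences were -0.01, -0.04 and -0.07, and none was called. The difference in the response at 0.5 h was -0.12 (adjusted p = 0.754), so a difference in the LPS response of Srf was not shown. From 0.5 to 1 h Srf rose by 0.17 in FosKO libraries (adjusted p = 0.00147), and the LysM difference over the same step was 0.09 (adjusted p = 0.0993).

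Over the set, LPS raised 2, 6 and 5 of the 9 genes at 0.5, 1 and 2 h in LysM macrophages and lowered none, where 5.09%, 19.2% and 30.6% of all genes tested were called higher and 7.24%, 35.8% and 60.8% in either direction. With quantile normalisation the LysM counts became 2, 4 and 3 higher and 0, 1 and 3 lower, the lower ones being Mapk3 at 1 h (-0.165, adjusted p = 0.00063, limma) and Mapk3, Elk3 and Srf at 2 h (-0.227, -0.105 and -0.108, adjusted p = 7.8e-06, 0.036 and 0.021). In FosKO libraries it raised 3, 5 and 6 and lowered 0, 0 and 1, where 4.45%, 17.6% and 32.6% of all genes were called higher, 1.47%, 15% and 29.5% lower, and 5.92%, 32.6% and 62.1% in either direction. With quantile normalisation the FosKO counts became 2, 2 and 3 higher and 0, 0 and 2 lower: Map2k1 was lost at 0.5 h, Map2k1, Elk3 and Srf at 1 h and Map2k2 and Elk3 at 2 h, when Mapk3 was called lower beside Srf. Map3k8 and Tnip2 at 0.5 h, joined by Map2k1 in FosKO libraries, made up the earliest calls, and Mapk3 was called at 2 h in FosKO libraries alone. No gene of the 9 was called for a FosKO minus LysM difference in LPS response, where 0.115%, 1.22% and 15% of genes were called at 0.5, 1 and 2 h by limma, and the lowest adjusted p among them was 0.0914, for Mapk3 at 2 h. The response of Mapk3 at that time differed by 0.09, which was called in a fit with a replicate block.

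Levels of different genes can be set side by side only per length. After subtraction of the log2 of the exonic length in kilobases, the LysM level at 0 h was 10.64 ± 0.05 for Mapk3 and 9.81 ± 0.05 for Map2k1 (SD, n = 3), the highest pair, followed by Srf at 8.16, Elk3 at 8.01, Map2k2 at 7.77, Tnip2 at 7.56, Elk4 at 7.11, Map3k8 at 6.82 and Elk1 at 6.65. Each step in the order was larger than the SD of either gene. For Map3k8 and Elk1, the lowest neighbours, the larger SD was 0.11, for Elk1. These SDs describe the spread between libraries and hold no error in length. Map3k8 moved from the eighth place at 0 h to a length-adjusted level of 8.80 in LysM and 9.07 in FosKO libraries at 2 h, above all ternary complex factors and Srf. Annotated exonic length stands in for the length that the counting used, so these levels are approximate.

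**Figure D4:**
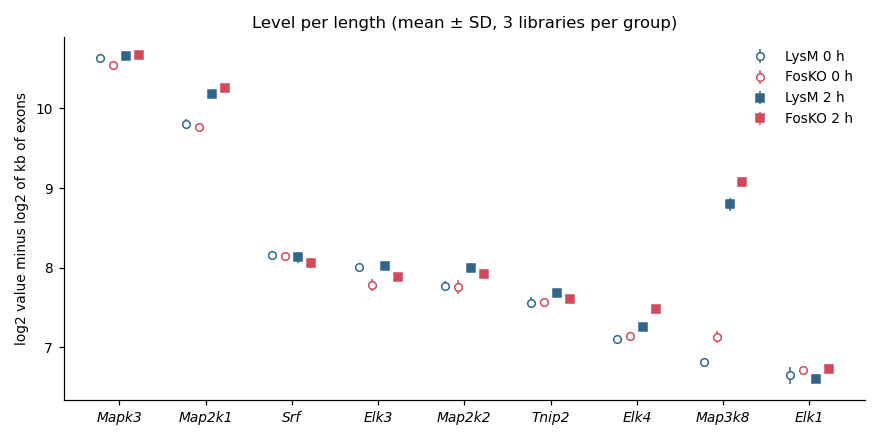
Level per length (deposited log2 value minus the log2 of the exonic length in kilobases, mean ± SD of 3 libraries) of the 9 genes at 0 h (open circles) and 2 h of LPS (filled squares) for both labels. Mapk3 and Map2k1 are highest throughout, and Map3k8 moves from 6.82 to 8.80 in LysM.

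The 9 genes shared few patterns. Over the 8 group means, which include the same LPS times in both genotypes, Map3k8 had a Pearson r of 0.87 with Map2k2 and 0.85 with Map2k1, and Map2k1 of 0.88 with Map2k2 and 0.82 with Elk4. Over the 24 libraries, deviations from the group means had an r of 0.72 between Map3k8 and Tnip2, -0.67 between Tnip2 and Mapk3, 0.55 between Map3k8 and Map2k1 and -0.50 between Map3k8 and Elk3. Libraries that read high for Map3k8 within their group thus tended to read high for Tnip2 and Map2k1 and low for Elk3, and such deviations also carry the composition of each library. Map3k8, whose group means spanned 2.25, was the single gene of the set with a span of at least 1. The tested genes whose 8 group means were most like it were Gm37305 (r = 0.973), Swt1 (r = 0.971) and Kin (r = 0.971). These correlations are descriptions over few points, without a test.

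The kinases and partner proteins around TPL-2 and ERK, a list of 22 tested genes from the IκB kinase, TAK1 and MAP kinase branches, were called higher in 7, 6, 3 and 8 and lower in 2, 3, 2 and 6 cases at 0, 0.5, 1 and 2 h in FosKO libraries. That was 40.9%, 40.9%, 22.7% and 63.6% of the list, against 35.4%, 40.9%, 33.9% and 44.6% of all genes tested, so at 0 and 0.5 h the list was near the whole table. Map2k3, which activates p38, was lower by 0.27, 0.28, 0.50 and 0.59 (adjusted p = 4.51e-10 at 2 h, limma). Ksr1, a scaffold for MEK and ERK, was 0.68 lower at 2 h, and Tab1, a partner of the kinase TAK1, was 0.43 lower. Of the 8 called higher at 2 h, Map2k4, which activates JNK, stood at 0.27 (adjusted p = 7.28e-07) and Mapk8, the JNK1 gene, at 0.29 (adjusted p = 0.000677), both named after their values were seen. They were not the largest: the highest value of the list at 2 h was 0.47, for a gene not named here. LPS at 2 h raised 14 and lowered 4 of the 22 in either genotype, 81.8% against 60.8% of all genes in LysM and 62.1% in FosKO libraries, with Tab2, another TAK1 partner, up in both, by 1.01 in FosKO libraries, and Tab1 changed by -1.20 and -1.54.

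Among 7 kinases that ERK or p38 activates, 1, 1, 1 and 2 were called higher and 2, 3, 3 and 1 lower in FosKO libraries over the 4 times, that is 3 or 4 of 7 against 35.4%, 40.9%, 33.9% and 44.6% of all genes. Rps6ka5, which encodes the chromatin kinase MSK1, was lower by 0.38, 0.44 and 0.30 at 0, 0.5 and 1 h, and LPS raised it at 2 h by 0.95 in LysM and 1.31 in FosKO libraries. Mknk1, which encodes the eIF4E kinase MNK1, was higher by 0.19, 0.23, 0.23 and 0.24. The related Mknk2 fell with LPS at 2 h by 0.59 in LysM and by 0.46 in FosKO libraries.

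Of 14 ETS factors other than the ternary complex factors, 7, 6, 3 and 6 were called higher and 1, 3, 1 and 2 lower in FosKO libraries, 57.1%, 64.3%, 28.6% and 57.1% of the list against 35.4%, 40.9%, 33.9% and 44.6% of all genes. Ets2, itself a target of ERK phosphorylation, was higher by 0.27, 0.29, 0.46 and 0.65, and LPS raised it at 1 h by 0.78 in LysM and 0.97 in FosKO libraries. Ets1 was lower by 0.44 and 0.47 at 0 and 0.5 h, and Elf1 was higher by 0.60 at 2 h. Etv3, a repressor of the family, rose at 1 h of LPS by 1.22 in LysM and 0.79 in FosKO libraries. Fli1 fell at 2 h by 1.05 and 0.93. Over the whole list the median genotype difference was 0.13, 0.13, 0.08 and 0.04 at 0, 0.5, 1 and 2 h. The genotype differences of Elk1, Elk3 and Elk4 lay between -0.30 and 0.22. At 1 h Elk3, at -0.19, was below the lowest value of the list, -0.16.

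**Figure D5:**
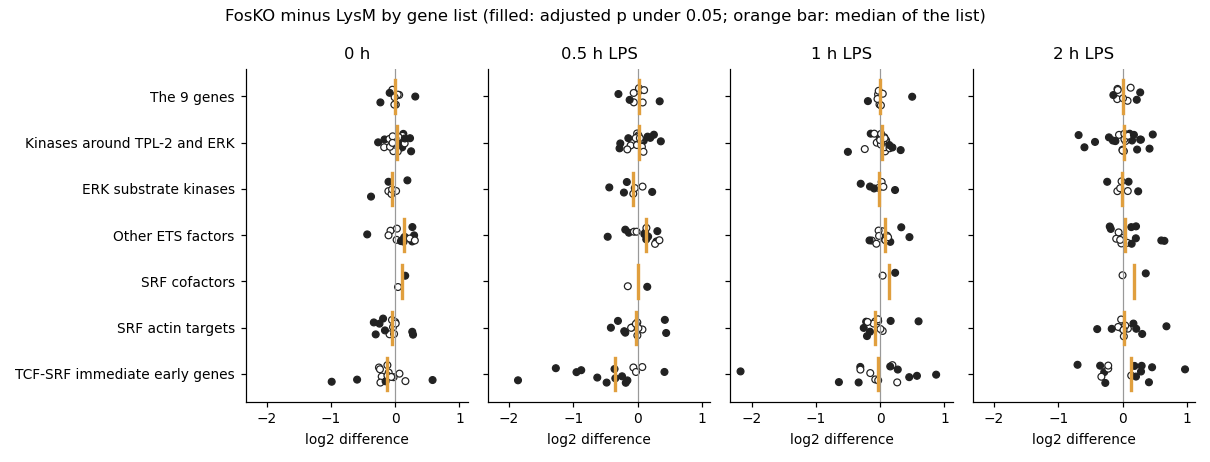
FosKO minus LysM difference on the log2 scale of each tested gene (points) of 6 lists and of the 9 genes, at 0, 0.5, 1 and 2 h, with an orange bar at the median of each list. The immediate early genes have a median of -0.35 at 0.5 h, and the 9 genes a median within 0.02 of 0 at every time.

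The second branch of Srf control runs through the actin-binding cofactors MRTF-A and MRTF-B, listed in the table as Mkl1 and Mkl2. Mkl1 was higher in FosKO libraries by 0.16, 0.15, 0.23 and 0.36 (adjusted p = 2.16e-09 at 2 h, limma), and Mkl2 was not called at any time. Both fell 2 h after LPS, Mkl1 by 0.92 in LysM and 0.71 in FosKO libraries and Mkl2 by 0.51 and 0.56. Of 13 cytoskeletal Srf targets, 2, 2, 2 and 4 were called higher and 5, 5, 4 and 2 lower in FosKO libraries, 53.8%, 53.8%, 46.2% and 46.2% of the list against 35.4%, 40.9%, 33.9% and 44.6% of all genes. Filip1l, named for its likeness to a filamin A-interacting protein, was higher by 0.28, 0.42, 0.60 and 0.68 (the 0 h call was lost without FosKO replicate 3 of 0 h, at an adjusted p of 0.17), and Flna, the filamin A gene, was lower by 0.30, 0.42 and 0.20 at 0, 0.5 and 1 h, the last a call lost under 5 other settings. The tropomyosin gene Tpm1 was lower by 0.25 and 0.39 at 1 and 2 h. LPS at 2 h raised 8 of the 13 in LysM and 9 in FosKO libraries, where 30.6% and 32.6% of all genes were called higher, and lowered 1 in each, with Vasp, an actin regulator, up by 1.29 and 1.00 and Filip1l by 1.75 and 2.16.

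The immediate early genes under ternary complex factor and Srf control, a list of 17 of which 15 were tested, were chosen as a list with the Fos deletion and earlier results in view, and Fos itself is not among them. LPS raised 14 of the 15 at 0.5 h in LysM macrophages, with a median of 2.73, and 13 in FosKO libraries, with a median of 2.24, where 5.09% and 4.45% of all genes were called higher. Between the genotypes, 1 was called higher and 3 lower at 0 h, 26.7% against 35.4% of all genes. At 0.5 h 11 were called lower and 1 higher in FosKO libraries, 80% against 40.9% of all genes, with a median of -0.35. At 1 h 5 were called higher and 4 lower, 60% against 33.9% of all genes, and at 2 h 7 and 4, 73.3% against 44.6%. Dusp5, a phosphatase of ERK, was lower at every time, by 0.99, 1.86, 2.17 and 0.70 (adjusted p = 7.22e-15 at 1 h, limma), and the nuclear receptor gene Nr4a1 by 1.27 and 0.64 at 0.5 and 1 h. Egr1 rose at 0.5 h of LPS by 5.43 in LysM and 5.58 in FosKO libraries, differed by -0.07 between the genotypes at that time without a call, and was 0.87 and 0.97 higher in FosKO libraries at 1 and 2 h. In the same libraries at 0.5 h, Srf differed by -0.12, Elk3 by -0.30 and Elk1 and Elk4 by 0.10 and -0.06, the last pair without a call.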

How the data were processed

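RNA of 24 macrophage libraries (8 groups of 3) was sequenced by the authors as strand-specific single-end reads. The submitters' processing notes name STAR 2.5.2a, RSEM 1.2.31, DESeq2 1.16.1 and GRCm38. The deposited table holds normalised values on a log2 scale that the authors made from their gene counts. The transform is not given in the sources used here, and the values resemble a regularised log, which pulls low genes together. The paper gives a typical read yield, but read depth per library is unknown, so no counting error could be given.

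Deposited log2 values were fitted as 8 group means with limma 3.58.1 (trend on the mean, 16 residual degrees of freedom), on the 13901 genes that reached a linear value of 5 in 3 or more libraries, with Benjamini-Hochberg adjustment and a threshold of 0.05. A model across genes was needed because 3 against 3 libraries cannot go below an exact permutation p of 0.1. Tested on simulated data for the genotype comparison at 2 h (13901 genes, 200 changed), the fit recovered 45% of changes of 0.25 and 81% of changes of 0.5, with 4 false calls among 130. In the data 44.6% of genes were called in that comparison, so the Benjamini-Hochberg cut-off was not that of the simulation. The simulated rates therefore do not carry over to the data. Gene positions and exonic lengths came from GENCODE (GRCm38), promoter windows from RefSeq.

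Alternatives were quantile and TMM scaling, pseudocount 1, no filter or a stricter one, only the groups compared, replicate blocks, no trend, an 18S term, only the high 18S libraries, and leaving out each replicate. All 9 genes could be named in every comparison. Of each list at most 4 called genes per comparison could be named, those with the largest differences. Map2k4 and Mapk8 were named outside this rule, after their values had been seen. Some genes that this rule would name are not reported here. The 9 genes and the lists were chosen with earlier results of these data known, and the steps between successive LPS times were added after values had been seen.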

Additional observations from a re-analysis of the deposited data

Results flagged for a closer look

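None of the 9 genes was called for a difference between the genotypes in its LPS response in the fit without a block. Among the alternatives, 2 called Mapk3 and 3 called Elk4 at 2 h. The genes named below, from the lists around them, were called for such a difference (limma, adjusted over all genes, FosKO minus LysM response on the log2 scale), and a value below 0 means that the change from 0 h lay below that of LysM in libraries labelled FosKO. They are not all that were called: of the 15 immediate early genes 4, 8 and 8 were, at 0.5, 1 and 2 h, and of the 22 genes of the list around TPL-2 and ERK 0, 1 and 6 (3 higher and 3 lower at 2 h), against 0.115%, 1.22% and 15% of all genes tested. At 0.5 h those named were Dusp5 at -0.87 (adjusted p = 0.000113) and Nr4a1 at -1.15 (adjusted p = 0.00283, not called in a fit of only the groups compared). At 1 h those named were Dusp5 at -1.18 (adjusted p = 2.87e-07), Egr1 at 1.08 (adjusted p = 9.73e-05), Etv3 at -0.43 (adjusted p = 0.00528, not called in high 18S libraries alone), Tpm1 at -0.22 (adjusted p = 0.0277, lost under 11 alternatives) and Map2k3 at -0.24 (adjusted p = 0.0458, lost under 15).

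At 2 h the genes named from the list around TPL-2 and ERK were Map2k3 at -0.33 (adjusted p = 0.000436), Ksr1 at -0.51 (adjusted p = 0.00203), Tab1 at -0.34 (adjusted p = 0.0166, lost in a fit of only the groups compared and without LysM replicate 2 of 2 h, at adjusted p = 0.056 and 0.052) and Map2k4 at 0.23 (adjusted p = 0.00115, named after its value was seen), all by limma. The highest value of that list was 0.37, for a gene not named here. Of the 7 ERK substrate kinases 1 was called, Rps6ka5 at 0.36 (adjusted p = 0.00868, limma). Among ETS factors Ets2 stood at 0.38 (adjusted p = 0.00168), Elf1 at 0.47 (adjusted p = 2.57e-06) and Etv3 at -0.45 (adjusted p = 0.000551). On the Srf side Mkl1 stood at 0.21 (adjusted p = 0.000949), Filip1l at 0.41 (adjusted p = 0.0227, lost with quantile normalisation at 0.28 and under 5 omissions of a library), Tpm1 at -0.36 (adjusted p = 3.75e-05) and Egr1 at 1.18 (adjusted p = 5.7e-06).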

How the results depend on the processing

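Of 39 planned comparisons in which one of the 9 genes was called, 18 were called in the same direction under every alternative run, 21 lost the call under at least 1 and 3 changed sign under at least 1. Of 78 not called, 15 were called under at least 1 and 40 changed sign under at least 1, 14 of them with quantile normalisation and 32 under the omission of a single library. The genotype calls for Map3k8 and Elk3 at all 4 times and Elk4 at 2 h were among the 18. Among results called in at least 1 setting, quantile normalisation reversed the sign of Map2k1 genotype at 0.5 h to -0.012 and LPS in LysM at 1 h to -0.0087, Mapk3 genotype at 2 h to -0.118 (-0.016 with TMM) and LPS at 2 h to -0.227 in LysM and -0.188 in FosKO, its FosKO step from 1 to 2 h to -0.104, and Elk3 LPS at 2 h to -0.105 in LysM and -0.0068 in FosKO. The reversed Mapk3 values were called lower (adjusted p = 0.0086, 7.8e-06, 7.4e-05 and 0.016), as was Elk3 in LysM (0.036). The cause was not tested. Mapk3 LPS in LysM at 1 h was 0.014 in high 18S libraries alone. Among results called in at least 1 setting, omissions moved 4 across 0: Mapk3 genotype at 2 h (-0.0053 to 0.018), and LPS in LysM at 2 h for Mapk3 (-0.0057 to 0.040), Elk3 (-0.0096 to 0.027) and Srf (-0.052 to 0.012). The Map3k8 step from 0.5 to 1 h in FosKO libraries was called with quantile normalisation (-0.20), TMM (-0.16), both replicate blocks (-0.15) and 3 omissions.

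Counts over all genes moved by more than 1.5 times in high 18S libraries alone, where fewer samples entered: genotype at 1 h to 2994 from 4708, LPS in LysM at 1 h to 3009 from 4970, the LysM step from 0.5 to 1 h to 2010 from 3725, and differences in response to 9 from 16 at 0.5 h and 93 from 169 at 1 h. In fits of only the groups compared they were 301 from 823 for LPS in FosKO at 0.5 h, 6 and 112 for the differences in response, and 2471 from 3819 for the FosKO step from 0.5 to 1 h. Quantile normalisation gave 25 for the difference at 0.5 h. Leaving out libraries gave 542 to 960 for LPS in FosKO at 0.5 h (lowest without FosKO replicate 3 of 0.5 h) and 9 to 24 for the difference at 0.5 h (9 without LysM replicate 3 of 0.5 h and 10 without replicate 2). The share of calls that were higher moved by over 10 points with quantile normalisation: genotype at 1 h 53.1% to 42.8% and at 2 h 54.6% to 43.04%, LPS in LysM 70.3% to 48.3%, 53.8% to 37.6% and 50.3% to 40.03%, and in FosKO 75.2% to 50.3%, 53.97% to 35.3% and 52.45% to 39.2% at 0.5, 1 and 2 h, the step from 0.5 to 1 h 52.24% to 41.89% in LysM and 52.71% to 39.09% in FosKO, and the FosKO step from 1 to 2 h 53.56% to 42.15%. TMM moved the difference in response at 2 h from 48.5% to 37.6%. The largest absolute median difference of all genes under quantile or TMM scaling was 0.0633.

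The sources do not tie the replicate numbers together, and same-numbered pairs did not all deviate together (median r 0.0186 over 84 pairs, -0.527 to 0.706, and 0.0631 over the 36 pairs of 1 genotype), so the fits without a block were kept. As a hint from the data and not from the design, 17 of 24 libraries correlated best with their own number. Of the pairs between groups, 84 shared a number and 168 did not. With a replicate block the genotype counts were 5136, 5886, 4876 and 6315 against 4919, 5689, 4708 and 6202, Mapk3 was called for the genotype at 0.5 h (adjusted p = 0.03) and for the 2 h difference in response (adjusted p = 0.042), and Elk1 lost its LPS call at 1 h in LysM (adjusted p = 0.053). With a block within genotype the counts were 1193 from 1007 and 1071 from 823 for LPS at 0.5 h in LysM and FosKO, and 2461 from 2081 for the difference in response at 2 h.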
